A study of Mus musculus with 8 samples.

Results

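The 39 genes of the mouse Hox clusters were examined in anterior neural progenitor cells (AntNPC), among 46406 genes of the expression table. A gene was taken as a member when its symbol was Hoxa, Hoxb, Hoxc or Hoxd followed by a number alone, which leaves out antisense transcripts. Poly(A) RNA was sequenced in 8 libraries, 4 of wild-type (WT) cells and 4 of cells homozygous for a deletion of PE Lhx5(-109), a poised enhancer named for its place beside the LIM homeobox gene Lhx5. The 4 null libraries came from 2 clonal lines with 2 libraries each, called clone 1 and clone 2 here. All lines were E14 mouse embryonic stem cells or made from them with CRISPR-Cas9 and a pair of guide RNAs. Every group was differentiated for 5 days without serum, with 10 ng/ml bFgf up to day 3 and with 5 μM Xav939, an inhibitor of WNT signalling, from day 2. Levels are in FPKM, which corrects the fragments of a gene for its length and for library size, so genes of different length can be compared. With 1 wild-type line and 2 null clones, the spread between libraries of a line is not the spread between lines, and genotype and clone cannot be told apart where the 2 clones differ.

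Hox genes encode homeodomain transcription factors that give cells of the embryo their position along the head to tail axis. In each cluster the genes lie in the order of the body levels they pattern. Paralog groups 1 to 4 are first used in the hindbrain and the middle groups in the neck and trunk. The last groups are used from the thorax to the tail and in the limbs. Forebrain and midbrain normally lack Hox transcripts. Polycomb complexes PRC2 and PRC1 keep unused clusters silent, while retinoic acid, FGF and WNT signals with CDX factors open them from the early end. A Hox readout therefore asks whether posterior identity is present in cells made to be anterior.

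No Hox gene reached 1 FPKM in any of the 8 libraries. The highest of the 312 library values was 0.266 FPKM, for Hoxb7 in clone 1 replicate 2. Of these values, 212 were listed at 0, 11 were at or above 0.1 FPKM and 1 was at or above 0.2 FPKM. A value of exactly 0 can also be a failed estimate, so such genes are given as listed at 0. Among all 21549 protein-coding genes of the table, 43.3% were below 1 FPKM in every library, against 100% of the Hox genes. At a limit of 0.3 FPKM in every library the shares were 35.8% of protein-coding genes and again 100% of the Hox genes.

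The silence held in all 4 clusters. HoxA on chr6:52155590-52260880 has 11 genes, of which 5 were listed at 0 in all 8 libraries. HoxB on chr11:96194316-96368256 has 10 genes with 3 listed at 0 throughout. HoxC on chr15:102921103-103036852 has 9 genes with 6 listed at 0 throughout. HoxD on chr2:74668310-74765142 has 9 genes with 2 listed at 0 throughout. Coordinates are those of GENCODE M21 on GRCm38. In all, 16 Hox genes (41.0%) were at 0 in every library, 20 were above 0 in 1 to 7 libraries and 3 were above 0 in all 8. Of all protein-coding genes, 17.4% were at 0 in every library.

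Promoter sequence is shown for 4 Hox genes to make visible what kind of start site was silent. Unmethylated CpG-rich promoters are, as background, the usual substrate of Polycomb complexes. Each is the 250 bases before the RefSeq start on GRCm38.p6, written 5′ to 3′ on the gene's own strand, with CpG in capitals. The choice was made among the 22 Hox genes with a RefSeq promoter entry, and of these among genes whose window held no annotated exon. Hoxa2, Hoxb8 and Hoxd13 had the highest mean level of such genes in their cluster. Hoxd12 was the longest such gene listed at 0 in all libraries. Hoxb7 and Hoxb9, with higher means than Hoxb8, had no entry.
Hoxa2 (chr6:52164832-52165081, - strand): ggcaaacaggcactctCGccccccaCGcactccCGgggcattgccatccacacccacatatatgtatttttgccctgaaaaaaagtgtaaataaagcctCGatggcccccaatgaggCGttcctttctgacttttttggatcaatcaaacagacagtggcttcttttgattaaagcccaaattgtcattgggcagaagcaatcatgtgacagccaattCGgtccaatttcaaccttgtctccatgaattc
Hoxb8 (chr11:96281655-96281904, + strand): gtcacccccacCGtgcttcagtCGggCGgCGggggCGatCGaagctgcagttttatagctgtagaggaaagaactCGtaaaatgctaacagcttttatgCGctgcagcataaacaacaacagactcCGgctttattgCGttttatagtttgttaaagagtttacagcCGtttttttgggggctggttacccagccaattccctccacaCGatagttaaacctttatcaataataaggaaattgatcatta
Hoxd13 (chr2:74667975-74668224, + strand): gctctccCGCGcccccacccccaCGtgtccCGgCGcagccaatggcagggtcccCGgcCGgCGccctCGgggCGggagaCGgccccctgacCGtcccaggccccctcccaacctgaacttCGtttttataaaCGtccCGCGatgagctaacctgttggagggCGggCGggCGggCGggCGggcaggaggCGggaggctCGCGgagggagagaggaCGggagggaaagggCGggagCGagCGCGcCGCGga
Hoxd12 (chr2:74674763-74675012, + strand): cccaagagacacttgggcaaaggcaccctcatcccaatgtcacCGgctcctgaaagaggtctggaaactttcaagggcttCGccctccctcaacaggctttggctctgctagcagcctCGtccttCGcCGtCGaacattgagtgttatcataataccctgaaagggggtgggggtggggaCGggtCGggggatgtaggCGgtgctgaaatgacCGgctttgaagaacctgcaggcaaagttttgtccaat
The Hoxd13 window held 31 CpG and a GC content of 74.4%, and the Hoxa2 window held 6 CpG and a GC content of 46.4%. Both genes were near silence, as were Hoxb8 with 12 CpG and Hoxd12 with 10.

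A RefSeq promoter entry matched 22 of the 39 Hox genes. These 22 windows held a median of 13 CpG, with a range of 3 to 35, and a median GC content of 59.2%. The other protein-coding genes with an entry had a median of 12 CpG. Split by level, the median was 18 CpG in the other genes at a mean of 1 FPKM or more and 3 in those below it. Among the 7375 other genes with at least the Hox median of CpG, 86.0% had a mean of 1 FPKM or more, against none of the 12 Hox genes with that many. Among the 8029 other genes with fewer CpG it was 30.4%, against none of the other 10 Hox genes. The motif searched was CG, which reads the same on both strands.

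**Figure D1:**
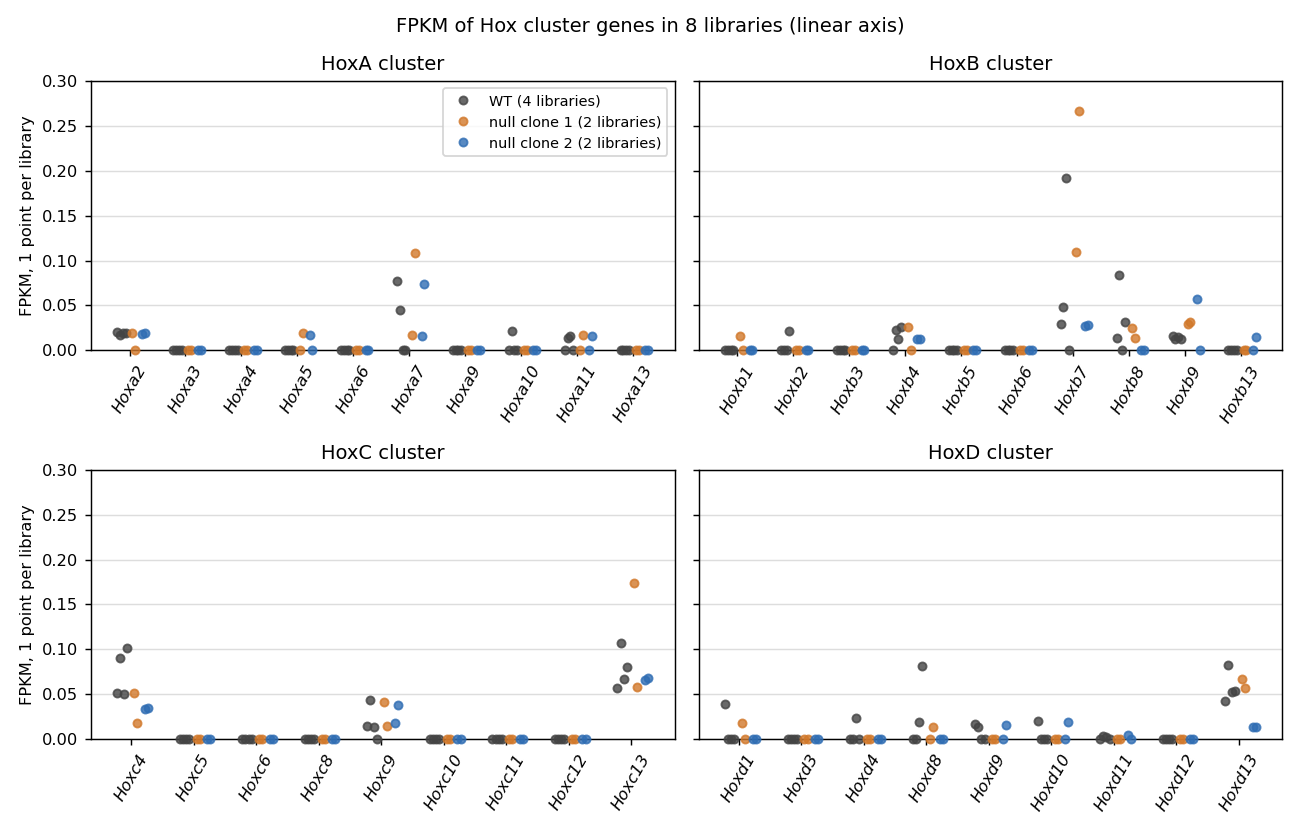
FPKM of Hox genes in each of the 8 libraries on a linear axis, 1 panel per cluster, with genes in the order of their paralog number; grey points are WT, orange null clone 1 and blue null clone 2 libraries. All points lie below 0.3 FPKM and most lie at 0, and Hoxb7 holds the highest point at 0.266 FPKM.

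The first paralog groups, 1 to 4, hold the genes of hindbrain identity. Of these 12 genes, 8 were above 0 in at least 1 library. Hoxc4, a gene of the hindbrain and neck level, was 1 of the 3 Hox genes above 0 in every library. It measured 0.0508, 0.0902, 0.0506 and 0.102 FPKM in WT. The null values were 0.0509 and 0.0182 FPKM in clone 1 and 0.0332 and 0.0345 FPKM in clone 2. The genotypes overlapped through 1 clone 1 library. Hoxa2, the Hox gene with the most anterior limit in the hindbrain, lay between 0.0170 and 0.0203 FPKM in 7 libraries and at 0 in clone 1 replicate 2. Hoxb4 was above 0 in 6 libraries, at no more than 0.0256 FPKM. Hoxb1, the marker of the fourth segment of the hindbrain, was above 0 in 1 library only, clone 1 replicate 1, at 0.0160 FPKM. Hoxb2, Hoxd1 and Hoxd4 were above 0 in 1, 2 and 1 libraries. Hoxa3, Hoxa4, Hoxb3 and Hoxd3 were listed at 0 in all 8.

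The middle groups, 5 to 8, pattern neck and thorax. Of these 11 genes, 5 were above 0 in at least 1 library. Hoxb7, expressed in thoracic neural tube and mesoderm, had the highest mean of all Hox genes, 0.0876 FPKM over the 8 libraries. Its WT libraries measured 0.0292, 0.0488, 0.192 and 0 FPKM. Its null libraries measured 0.110 and 0.266 FPKM in clone 1 and 0.0269 and 0.0280 FPKM in clone 2. WT held both the lowest and the second highest library, and the genotypes overlapped.

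Hoxb8, whose neighbour is Hoxb7, measured 0.0132, 0.0841, 0 and 0.0318 FPKM in WT, 0.0249 and 0.0134 FPKM in clone 1, and 0 in both clone 2 libraries. The high WT library differed between these neighbours, being replicate 3 for Hoxb7 and replicate 2 for Hoxb8. Hoxa7 was above 0 in 6 libraries and reached 0.108 FPKM in clone 1 replicate 2. Hoxd8 was above 0 in 3 libraries, with 0.0810 FPKM in WT replicate 4 as its highest. Hoxa5 was above 0 in 1 library of each clone and listed at 0 in WT. The other 6 genes of these groups, Hoxa6, Hoxb5, Hoxb6, Hoxc5, Hoxc6 and Hoxc8, were listed at 0 in all 8 libraries.

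The last groups, 9 to 13, pattern levels from the thorax to the tail, and 10 of their 16 genes were above 0 in at least 1 library. Hoxc13, known for its part in hair and nails and in the tail, was above 0 in every library. It measured 0.0568, 0.107, 0.0667 and 0.0803 FPKM in WT, 0.174 and 0.0577 FPKM in clone 1, and 0.0656 and 0.0682 FPKM in clone 2. Clone 1 held the highest library, above all WT libraries, while its other library lay within the WT range, so the groups overlapped. Hoxd13, the gene of digits and the genital bud, measured 0.0422, 0.0824, 0.0528 and 0.0530 FPKM in WT and 0.0664 and 0.0572 FPKM in clone 1. Its clone 2 values of 0.0130 and 0.0135 FPKM lay below all 6 others.

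Hoxb9, a gene of the thorax, lay between 0.0127 and 0.0155 FPKM in WT, at 0.0293 and 0.0315 FPKM in clone 1, and at 0.0573 and 0 FPKM in clone 2. Hoxc9 was above 0 in 7 libraries and reached 0.0432 FPKM. Hoxa11 and Hoxd9, genes of limb and lower trunk, were above 0 in 4 and 3 libraries at no more than 0.0172 FPKM. Hoxd11 was above 0 in 3 libraries at no more than 0.00470 FPKM. Hoxa10, Hoxb13 and Hoxd10 were above 0 in 1, 1 and 2 libraries. Hoxa9, Hoxa13, Hoxc10, Hoxc11, Hoxc12 and Hoxd12 were listed at 0 in all 8.

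Traces lay in early, middle and late paralog groups alike, and their order along the clusters was not tested. The WT group means summed to 0.226 FPKM over the 12 genes of paralog groups 1 to 4. For groups 5 to 8, with 11 genes, the sum was 0.155 FPKM, and for groups 9 to 13, with 16, 0.194 FPKM. As the groups differ in number of genes, these sums do not compare levels per gene. By cluster, the WT sums were 0.160 FPKM for HoxA, 0.134 FPKM for HoxB, 0.169 FPKM for HoxC and 0.112 FPKM for HoxD. Summed over all 39 genes, the level was 0.504 to 0.707 FPKM in the WT libraries, 0.711 and 0.723 FPKM in clone 1 and 0.284 and 0.388 FPKM in clone 2. The clone 2 sums lay below all others and the clone 1 sums above all others, at levels that a single expressed gene would exceed.

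The read numbers behind these levels were very small. In the authors' deposited table the mean reads of the 39 Hox genes summed to 33.7 in WT and 31.0 in null, of 26693189 and 26864352 reads over all genes. Hoxc13 had the most, with 5.92 mean reads in WT and 6.83 in null, and 17 Hox genes had 0 in both genotypes. The 2 measures disagreed for the faintest genes, since Hoxb2 and Hoxd4 had an FPKM above 0 in 1 library but 0 mean reads, and Hoxc12 had 0.25 mean reads in null but was listed at 0 FPKM. Mean reads were higher in null for 10 genes, lower for 12 and equal for 17. For Hoxc9 they differed in direction, with mean reads of 3.84 in WT and 1.81 in null beside mean levels of 0.0180 FPKM in WT and 0.0281 FPKM in null. The 4.30 mean WT reads of Hoxc4, a gene of similar exonic length, stand beside 0.0733 FPKM. Hoxc9 lies within the annotated span of Hoxc5, and Hoxc4 overlaps no other long gene. In all, 22 Hox genes overlap another annotated long gene, and 11 of these were listed at 0 in all libraries, against 5 of the 17 without overlap.

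**Figure D2:**
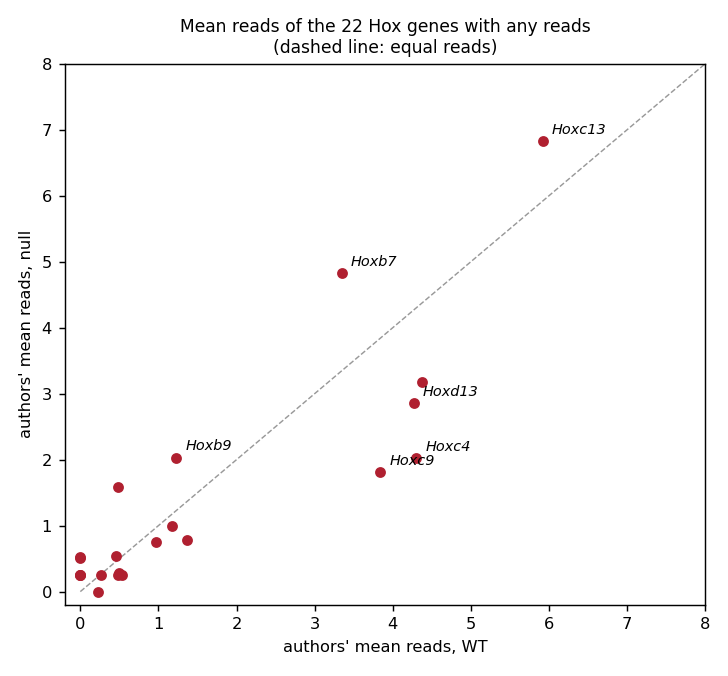
The authors' mean reads in null (vertical) against WT (horizontal) for the 22 Hox genes with any reads, on linear axes; the dashed line marks equal reads. No gene exceeds 6.83 mean reads, and points lie on both sides of the line.

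For most Hox genes above 0 the small FPKM values could be read as steps. Relative depth was estimated from the commonest ratio between a library and WT replicate 1 over genes of very few reads. It ranged from 0.985 to 1.20 of WT replicate 1. After scaling by it, the values of 16 of the 23 Hox genes above 0 were whole multiples of 1 step within 2%. The step was taken from each gene's own smallest value. Hoxa10, Hoxb1, Hoxb2, Hoxb13 and Hoxd4, above 0 in 1 library each, therefore meet this by construction. For 14 of the 16 genes the step was the smallest value itself, with a median of 0.0173 FPKM. For Hoxa7 and Hoxc13 it was that value divided by 3 and by 4. Their values reach 18 and 13 steps, where a limit of 2% of the value is loose. For 10 genes no library exceeded 1 step, and these include the genes above 0 in 1 library only. In such steps Hoxd13 measured 3, 7, 4 and 4 in WT, 5 and 4 in clone 1, and 1 and 1 in clone 2. Hoxb7 measured 1, 2, 7 and 0 in WT, 4 and 9 in clone 1, and 1 and 1 in clone 2. Hoxa2 measured 1 step in each of its 7 libraries. If 1 step is 1 fragment, which the table does not state, most differences between libraries are of a few fragments.

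Because every Hox gene was below a mean of 1 FPKM over the libraries, none entered the test of differences, which used limma on log2(FPKM + 1) with Benjamini-Hochberg adjustment. None reached a mean of 0.1 FPKM either. With no filter on low values, limma tested 23 Hox genes among 28300 genes, and 0 passed an adjusted p of 0.05 in null against WT. Of all genes in that fit 0.0212% passed. Unadjusted, 1 Hox gene was under 0.05, beside 4.4% of all genes. It was Hoxc4, with a log2 difference of -0.05 ± 0.02 (SE), an unadjusted p of 0.0353 and an adjusted p of 0.984 from limma. In the authors' deposited table, whose test is not stated, 0 of the 22 Hox genes with reads had a p under 0.05, beside 4.79% of all genes with reads. The lowest of these p-values was 0.128, also for Hoxc4. No Hox gene had null and WT libraries that did not overlap, against 0.993% of all genes that were higher and 2.21% that were lower in null without overlap. Among the 8029 genes above 0 with a mean up to that of the highest Hox gene, these shares were 0.722% and 0.585%.

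Against WT, 0 Hox genes passed limma's test without a filter in clone 1 (5.32% of all genes) and 0 in clone 2 (4.1% of all genes). The lowest adjusted p in clone 1 was 0.307, for Hoxb7. Hoxb9 was the 1 Hox gene whose clone 1 libraries both lay above all WT libraries, which 11% of all genes and 6.97% of the genes of such low level did. Of the 23 Hox genes above 0, 3 had both clone 2 libraries below all WT libraries, Hoxc4 and Hoxd13 among them, which 15.8% of all genes and 3.1% of those of low level did. Both comparisons share the WT libraries.

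Between the clones, 1 Hox gene passed limma's test without a filter. In that comparison 20.8% of all genes passed, and 2.6% of the 8029 genes with a mean up to that of the highest Hox gene. The count of Hox genes was 0 without clone 2 replicate 1 and stayed at 1 with each of the other 7 libraries left out in turn. Both clone 2 libraries lay below both clone 1 libraries in 4 Hox genes, Hoxb7, Hoxb8 and Hoxd13 among them, as they did in 24.3% of all genes and 12.8% of those of low level. Clone 1 replicate 2 stood apart in small structured RNAs, with Rn7sk at 250 FPKM against at most 28.4 FPKM elsewhere.

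Markers of other cells moved between the clones as well. Summed over 10 pluripotency genes, the level was 100 to 127 FPKM in WT, 174 and 194 FPKM in clone 1 and 74.6 and 84.9 FPKM in clone 2. In clone 2 against clone 1, 6 of the 6 tested were lower (5 to 6 when 1 library was left out). Summed over 7 neuronal genes, it was 38.2 to 49.8 FPKM in WT, 49.2 and 54.1 FPKM in clone 1 and 26.1 and 30.7 FPKM in clone 2. The part of these in the Hox values of the clones was not tested. In bulk RNA, fewer expressing cells and less RNA per cell cannot be told apart. Mesoderm, a source of Hox transcripts, was little represented: Msgn1 was listed at 0 in all libraries, T (Brachyury) had a WT mean of 0.344 FPKM and Tbx6 0.529 FPKM. Of its 10 measured markers 1, Pdgfra, was at 1 FPKM or more in WT. The sum over the 10 was 9.30 to 10.4 FPKM in WT, 6.83 and 7.25 FPKM in clone 1 and 10.5 and 11.5 FPKM in clone 2. Of 8 endoderm genes 1 was at 1 FPKM or more, Cxcr4 at 42.4 FPKM, while Sox17 was at 0.0236 FPKM and Foxa2 at 0.110 FPKM in WT. The endoderm sum was 41.8 to 45.2 FPKM in WT. It was 28.3 and 29.2 FPKM in clone 1 and 41.7 and 46.3 FPKM in clone 2. Nearly all of it was Cxcr4, at a mean of 27.9 FPKM in clone 1 and 42.9 FPKM in clone 2. Of 7 extraembryonic endoderm genes 3 reached 1 FPKM in WT, and the sums over all libraries ran from 31.6 to 38.9 FPKM. Of 9 neural crest genes 5 did, with sums of 14.3 to 17.6 FPKM in WT, 20.7 and 24.5 FPKM in clone 1 and 14.2 and 16.8 FPKM in clone 2.

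The labels were checked in the same table. Lhx5 fell from 16.4 ± 1.05 FPKM (SD, n = 4) in WT to between 0.854 and 1.90 FPKM in the 4 null libraries, with an adjusted p of 8.22e-05 from limma. All 12 markers listed for anterior neural progenitors were at 1 FPKM or more in WT, including Otx2, the determinant of forebrain and midbrain, at 206 ± 10.8 FPKM. In clone 2 against clone 1, 3 of the 12 were higher and 5 lower. Over all 14521 genes tested at a mean of 1 FPKM or more, 8 passed in null against WT (0.0551%). In clone 1 against WT 604 genes were higher and 1662 lower, a split that became 1021 higher and 917 lower when libraries were rescaled to each other. In clone 2 against WT 1025 were higher and 1011 lower, which became 1073 and 1391. Between the clones 3618 were higher in clone 2 and 2176 lower, which became 2705 and 3128. These are 15.6%, 14% and 39.9% of the genes tested.

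The regional genes of the territory in front of the Hox domain were on. Of 13 forebrain genes, 9 were at 1 FPKM or more in WT, and in clone 2 against clone 1 1 was higher and 6 lower (2 to 8 lower when 1 library was left out). Hesx1, a repressor needed for forebrain and pituitary, measured 21.7 to 36.7 FPKM in WT, 36.5 and 30.6 FPKM in clone 1, and 6.39 and 2.43 FPKM in clone 2. Of 11 midbrain and isthmus genes, 8 were at 1 FPKM or more in WT, and 9 of the 9 tested were higher in clone 2 than in clone 1 (7 to 9 when 1 library was left out, 8 after rescaling). Gbx2, which sets the front edge of the hindbrain, measured 1.59, 0.938, 1.49 and 1.96 FPKM in WT, 0.176 and 0.158 FPKM in clone 1, and 6.28 and 8.18 FPKM in clone 2. The clones lay on opposite sides of WT with no overlap, with a log2 difference between them of 2.81 and an adjusted p of 9.75e-05 from limma. Of 13 hindbrain genes, 8 were at 1 FPKM or more in WT, among them Ephb1 at 24.5 FPKM, Irx3 at 14.7 FPKM and Epha4 at 13.5 FPKM. Of the 8 hindbrain genes tested, 6 were higher and 1 lower in clone 2 than in clone 1. Egr2, a direct activator of Hox genes in the hindbrain, measured 0.130, 0.175, 0.0874 and 0.0614 FPKM in WT, 0.197 and 0.364 FPKM in clone 1, and 0.181 and 0.385 FPKM in clone 2. All 4 null libraries lay above all WT libraries, as did those of 0.993% of all genes, at levels below 1 FPKM. Without a filter its log2 difference in null against WT was 0.20 ± 0.07 (SE), with an unadjusted p of 0.0178 and an adjusted p of 0.984 from limma. In the clone 2 libraries, where Gbx2 was highest, no Hox gene of paralog groups 1 to 4 exceeded 0.0345 FPKM.

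**Figure D3:**
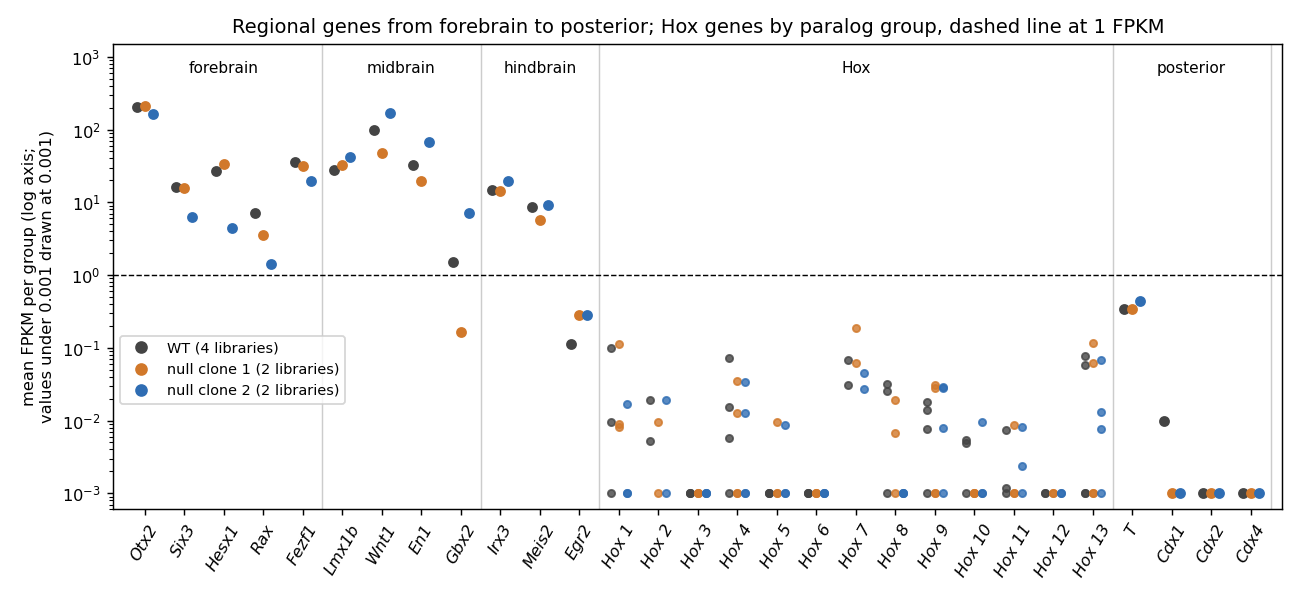
Mean FPKM per group on a log axis for genes ordered from forebrain to posterior, with the Hox genes pooled by paralog group (1 point per gene and group); values under 0.001 FPKM are drawn at 0.001 and the dashed line marks 1 FPKM. Otx2 stands at 206 FPKM in WT, Egr2 at 0.113, and every Hox point lies below 0.2 FPKM.

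Of the genes that act before Hox genes in the trunk, the Cdx genes were silent or nearly so. Cdx2 and Cdx4, direct activators of the middle Hox genes, were listed at 0 in all 8 libraries, and Cdx1 had a WT mean of 0.0100 FPKM and was listed at 0 in all null libraries. Of 14 posterior and axial progenitor genes, 5 were at 1 FPKM or more in WT. Besides Wnt3a these were Sall4 at 77.5 FPKM, Cyp26a1 at 22.3 FPKM, Sp8 at 20.1 FPKM and Sp5 at 2.87 FPKM. Of all protein-coding genes, 45.6% had a mean below 1 FPKM over the 8 libraries. The 5 were the genes tested, and in clone 2 against clone 1 3 were higher and 2 lower. Wnt3a, a ligand of the posterior growth zone and of the dorsal neural tube, rose to 11.1 and 9.63 FPKM in clone 2 from 1.15 and 1.34 FPKM in clone 1, with 3.48 ± 0.777 FPKM (SD, n = 4) in WT. Its log2 difference between clones was 2.34, with an adjusted p of 0.000196 from limma. Of 13 ParaHox and related homeobox genes, 1 was at 1 FPKM or more in WT, namely Gbx2.

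The partners of HOX proteins were present without them. PBX, MEIS and PKNOX proteins bind DNA together with HOX proteins and also act without them in the forebrain and midbrain. All 9 of their genes were at 1 FPKM or more in WT, with Pbx2 the highest at 73.6 ± 3.22 FPKM (SD, n = 4). In clone 2 against clone 1, 6 of 9 were higher and 2 lower. Meis1 measured 2.71 ± 0.736 FPKM in WT, 1.06 and 0.943 FPKM in clone 1, and 4.59 and 6.68 FPKM in clone 2, a log2 difference of 1.71 between clones with an adjusted p of 0.00101 from limma.

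Of 16 genes of the retinoic acid pathway, 10 were at 1 FPKM or more in WT. Crabp2, a binding protein for retinoic acid, was at 323 ± 6.95 FPKM, and Rara, a receptor, at 9.02 ± 0.228 FPKM (SD, n = 4). Rarb, another receptor, was at 0.193 ± 0.0474 FPKM and Aldh1a2, the main synthesis enzyme of the trunk, at 0.903 ± 0.201 FPKM. Other genes of the list were higher in WT, with Cyp26a1 at 22.3 ± 4.97 FPKM, Rdh10 at 3.11 ± 0.145 FPKM and Aldh1a3 at 1.11 ± 0.157 FPKM. Cyp26a1 measured 25.9 and 26.9 FPKM in clone 1 and 10.1 and 2.26 FPKM in clone 2. In clone 2 against clone 1, 5 of the 10 tested genes were higher and 2 lower, or 3 lower after rescaling. Crabp2 was higher, with a log2 difference of 0.50 and an adjusted p of 0.000106 from limma, and Rarg was lower, with -1.37 and 0.000785.

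The machinery that represses and activates Hox clusters was expressed. All 11 PRC2 genes, all 19 PRC1 genes and all 11 genes of Trithorax complexes and of the removal of their opposing mark were at 1 FPKM or more in WT. Ezh2, the main methyltransferase of PRC2, was at 150 ± 5.87 FPKM, Eed at 36.9 ± 0.154 FPKM and Suz12 at 36.1 ± 1.56 FPKM (SD, n = 4). No gene of these 3 lists passed in null against WT. In clone 1 against WT 0 PRC2 genes were higher and 2 lower, which turned to 2 higher and 0 lower when libraries were rescaled, so no direction holds there. In clone 2 against clone 1, 3 PRC2 genes were higher and 1 lower as deposited, and 1 was higher and 3 lower after rescaling. Of the PRC1 genes 9 were higher and 3 lower in that comparison, and of the Trithorax list 2 were higher and 0 lower, which became 1 and 1 after rescaling. Cbx7, a PRC1 subunit that reads the Polycomb mark, was lower in clone 2 than in clone 1, with a log2 difference of -1.16 and an adjusted p of 0.000468 from limma.

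Expressed genes lay on both sides of every cluster. Within 500 kb of the clusters the annotation holds 50 other protein-coding genes, of which 34 (68%) had a mean of 1 FPKM or more. Of all protein-coding genes, 45.6% had a mean below 1 FPKM. The median over the 50 was 11.8 FPKM. Beside HoxD, Mtx2 lay 60.7 kb away at 28.1 FPKM and Lnp 88.9 kb away at 18.1 FPKM. Beside HoxB, Atp5g1 lay 119 kb away at 132 FPKM. Nearer to HoxB lay Ttll6 at 28.9 kb, Calcoco2 at 82.4 kb and Skap1 at 96.3 kb, with low means of 0.172, 0.0847 and 0.0643 FPKM. On the side of Skap1 the nearest gene at 1 FPKM or more was Snx11, 399 kb away. Beside HoxC, Smug1 lay 116 kb away at 8.60 FPKM, and beside HoxA, Skap2 lay 143 kb away at 12.2 FPKM. The homeobox genes Evx1 and Evx2, which adjoin HoxA and HoxD, were as low as the Hox genes, at means of 0.00758 and 0.000969 FPKM.

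**Figure D4:**
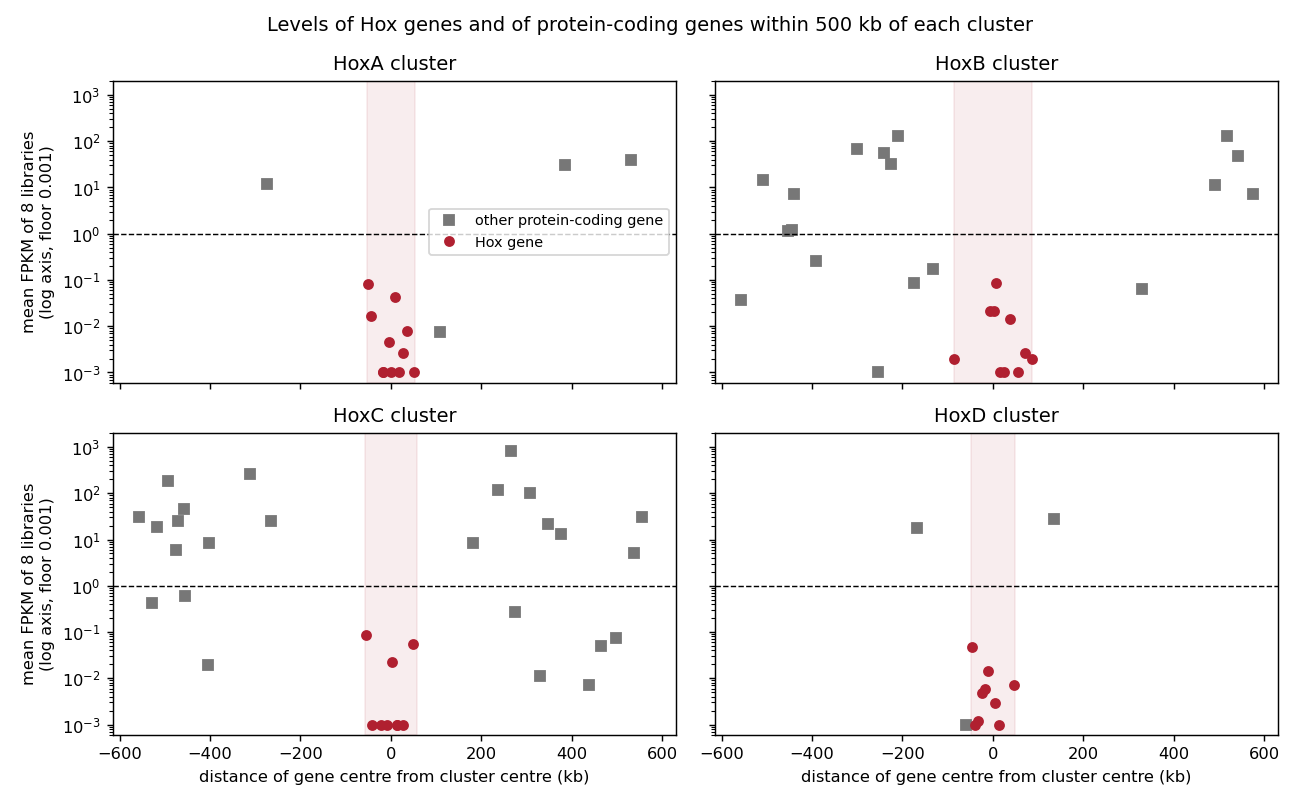
Mean FPKM of the 8 libraries on a log axis against the distance of each gene's centre from the centre of its cluster in kb, 1 panel per cluster; red circles are Hox genes, grey squares other protein-coding genes within 500 kb, shading marks the cluster and values under 0.001 are drawn at 0.001. All Hox genes lie below 0.1 FPKM and 34 of the 50 neighbours at 1 FPKM or more (dashed line).

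Inside the clusters lie 46 other annotated genes, and 32 of them were listed at 0 in all libraries. The 7 microRNA genes among them were all at 0, in libraries made from poly(A) RNA that do not capture mature microRNAs. The 1 gene at a mean of 1 FPKM or more was Gm11539, a processed pseudogene in HoxB, at 3.56 to 5.05 FPKM in the 8 libraries. Its mean reads were only 4.23 in WT and 4.24 in null, with an exonic length of 557 bases. Hoxc4, with 2568 bases, had 4.30 mean reads in WT beside 0.0733 FPKM, so reads and FPKM disagree for Gm11539. A processed pseudogene can take reads from its parent gene, which was not tested. Hotairm1, an antisense transcript of HoxA, measured 0.183, 0.277, 1.15 and 0.229 FPKM in WT, 0.115 and 0.664 FPKM in clone 1, and about 0 and 0.386 FPKM in clone 2. Its groups overlapped. Hotair and Hottip, the long non-coding RNAs of HoxC and of the far end of HoxA, were listed at 0 in all libraries. Of 16 named non-coding transcripts of the clusters, 11 were listed at 0 throughout and none had a WT mean of 1 FPKM.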

How the data were processed

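Poly(A) RNA was measured in 8 libraries, grouped by title, cell line and column header. The FPKM values per library, the mean FPKM per genotype, the mean read signal, the fold ratio and the p-value per gene were computed by the authors and deposited in 1 table, and the p-value's test is not stated. The submitters' processing notes name the tools TopHat2, Cufflinks, DESeq2, SAMtools and FastQC and, as builds, mm10 and GRCm38. The design foresaw counts or FPKM. As the columns are FPKM, limma 3.58.1 in R 4.3.3 (trend, robust) was run on log2(FPKM + 1) over all genes with a mean of at least 1 FPKM, a scale that understates changes of low genes. Null against WT used 2 groups, and the clones a 3-group fit. Adjusted p-values are Benjamini-Hochberg with a threshold of 0.05. The fit was tested on simulated data. No counts of single libraries were used, so the absolute depth of each library is unknown. Mean reads per genotype are the authors', and relative depth between libraries was estimated from the steps between low FPKM values.

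All 39 Hox identifiers matched GENCODE M21, of 45900 matched in all. Members and lists were chosen with earlier results of these data known. Up to 4 genes per list past the threshold by smallest adjusted p, Lhx5, defining markers and genes within 500 kb are named. Neighbour and other-cell lists are given by counts, sums and levels. Egr2, Ephb1, Irx3, Epha4, Aldh1a2, Aldh1a3, Rarb, Rdh10, Cyp26a1, Eed and single Hox genes were named after their values were seen. Alternatives were other pseudocounts (0.1, 0.5), filters, rescaling, moderation, a correlation within lines and leaving out each library. Fits without a filter combined with a pseudocount of 0.1 or a left-out library were added after seeing the data. Results of some single genes are not reported here. The labels call the samples biological replicates.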

Additional observations from a re-analysis of the deposited data

Results flagged for a closer look

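In 5 of the 20 Hox genes above 0 in WT, 1 WT library lay far from the other 3 by Dixon's criterion. These were Hoxa10 at 0.0216 FPKM, Hoxb2 at 0.0211 FPKM, Hoxd1 at 0.0385 FPKM, Hoxd4 at 0.0231 FPKM and Hoxd10 at 0.0198 FPKM, each with the other 3 WT libraries at 0. Chance marks about 1 in 20 groups, and a gene seen in a single library meets the criterion by construction. Among 36 other genes it marked Hesx1 at 36.7 FPKM and Hotairm1 at 1.15 FPKM as high, and Wnt1 at 85.0 FPKM and Wnt3a at 2.32 FPKM as low.

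Of the 36 other genes, 32 differed between the clones past limma's adjusted threshold, as did 39.9% of all genes tested. Many of the 36 were named for passing that threshold in some comparison, so the count of 32 says nothing about these genes as a group. Higher in clone 2 than in clone 1 on the log2 scale were Gbx2 (2.81), Wnt3a (2.34), Wnt1 (1.84), En1 (1.75), Meis1 (1.71), Sp5 (1.37), Cdh2 (0.97), Sp8 (0.93), Sox1 (0.86), Meis3 (0.70), Irx5 (0.67), Meis2 (0.58), Cbx2 (0.55), Crabp2 (0.50), Crabp1 (0.49), Rbbp7 (0.49), Pbx2 (0.47), Yaf2 (0.38), Lmx1b (0.35), Pbx3 (0.32), Rnf2 (0.32), Rara (0.31) and Ezh2 (0.21). Lower in clone 2 were Hesx1 (-2.77), Rarg (-1.37), Cbx7 (-1.16), Pax6 (-1.09), Rax (-0.97), Ezh1 (-0.82), Fezf1 (-0.66), Sall4 (-0.64) and Otx2 (-0.34). Leaving out clone 2 replicate 2 ended the calls of Otx2, Ezh2 and Rax, at adjusted p-values of 0.0527, 0.0628 and 0.104 from limma. Leaving out clone 1 replicate 2 ended those of Fezf1 and Rax, at 0.0620 and 0.147, and rescaling ended that of Ezh2, at 0.0827. Rax also lost its call without WT replicate 1, 3 or 4 or clone 1 replicate 1, at 0.0535 to 0.0666, without a filter, at 0.0540, and with a pseudocount of 0.1, at 0.0504.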

How the results depend on the processing

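The count of Hox genes past the threshold stayed at 0 in null against WT and in each clone against WT under every alternative that tested any. Between the clones it went from 0 to 1 with no filter, was 1 with no filter and a pseudocount of 0.1, and ranged from 0 to 1 with no filter and 1 library left out. No Hox gene reached a group mean of 1 or 0.5 FPKM. At 0.1 FPKM the count was 0 in WT, 1 in null, 3 in clone 1 and 0 in clone 2. The 8 genes past the threshold in null against WT became 4 with rescaled libraries, 3 with correlated libraries of a line, 106 when both clones were averaged in the 3-group fit, and 3 to 8 with 1 library left out.

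Calls of a clone against WT lean on single libraries: without clone 1 replicate 2, 438 genes passed in clone 1 in place of 2266, and without clone 2 replicate 2, 172 passed in clone 2 in place of 2036. Of the values of other named genes under alternatives, 1016 kept their call, 106 lost it and none turned. No paired analysis was possible because null libraries carry numbers only inside their own clone and match no single WT number. The filtered alternatives tested no Hox gene and give no value for them. Depth limits every Hox value, as most rest on a few reads.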
